A study of Mus musculus with 22 samples.

Results

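The mitochondrial carriers of the SLC25 family were followed as RNA in blood-forming cells of mice with and without Arid1a. They were taken as all protein-coding mouse genes whose symbol begins with Slc25a, which gave 47 genes among the 21702 protein-coding genes that the transcripts could be paired with. RNA was measured in 22 libraries of cells sorted from bone marrow, namely long-term hematopoietic stem cells (LT-HSC; 2 wild type, 2 knockout), common myeloid precursors (CMP), granulocyte monocyte precursors (GMP) and megakaryocyte erythroid precursors (MEP; 3 wild type and 3 knockout mice, each of which gave all 3 populations). Knockout (KO) mice were C57BL/6 Arid1a f/f;Mx1-Cre+ and wild type (WT) mice Arid1a f/f;Mx1-Cre-, so both carried the floxed allele, and both received 5 doses of poly(I:C) at 8 to 14 weeks of age. Cells were sorted 4 weeks later. Mx1-Cre is induced by interferon and is not restricted to blood cells, and what it removes is exon 9 of Arid1a, a core subunit of the SWI/SNF chromatin remodelers.

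SLC25 proteins sit in the inner mitochondrial membrane, a few of them in other membranes, and each exchanges or imports particular small molecules such as ADP and ATP, phosphate, amino acids, carboxylates and cofactors. Red cell precursors lean on some of them heavily, because heme synthesis begins and ends in the mitochondrial matrix. Slc25a38 brings in glycine for the first step, Slc25a37 (mitoferrin-1) and Slc25a28 (mitoferrin-2) bring in iron, and Slc25a39 and Slc25a40 carry glutathione.

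Slc25a38 and Slc25a21, the carrier of oxodicarboxylates such as 2-oxoadipate, had the largest rises from CMP to MEP in WT cells, and both were higher in KO CMP and KO MEP. Their promoters are shown for that reason, as the 250 bases before the RefSeq start on the gene's strand in GRCm38.p6. That of Slc25a38 is at chr9:120110132-120110381 on the plus strand, and the starts of Slc25a21 follow chr12:57197473-57197722 and chr12:57160644-57160893 on the minus strand.
Slc25a38: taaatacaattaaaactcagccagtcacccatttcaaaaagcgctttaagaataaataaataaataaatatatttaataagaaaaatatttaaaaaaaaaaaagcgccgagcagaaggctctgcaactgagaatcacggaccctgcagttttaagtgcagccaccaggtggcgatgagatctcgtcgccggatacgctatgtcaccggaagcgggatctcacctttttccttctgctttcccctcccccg
Slc25a21, upstream start: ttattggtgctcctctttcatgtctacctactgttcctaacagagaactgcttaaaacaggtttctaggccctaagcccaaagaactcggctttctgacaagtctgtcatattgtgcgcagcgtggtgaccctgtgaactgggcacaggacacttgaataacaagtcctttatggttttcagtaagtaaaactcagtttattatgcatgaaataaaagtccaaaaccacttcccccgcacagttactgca
Slc25a21, downstream start: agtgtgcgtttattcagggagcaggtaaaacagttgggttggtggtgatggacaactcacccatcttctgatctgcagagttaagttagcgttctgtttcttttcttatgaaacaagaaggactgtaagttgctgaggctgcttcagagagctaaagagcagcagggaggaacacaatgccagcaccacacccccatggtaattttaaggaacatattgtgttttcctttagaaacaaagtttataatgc
The GATA motif, that is GATAA or GATAG after an A or a T, searched on both strands, was not found in any of these 3 windows, so no base is in capitals. Among all 32851 promoter windows of this length, 26.5% held at least 1 match, as did 6 of the 46 windows of the 36 carriers with an entry.

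Libraries held between 40952593 and 66108885 estimated counts. Arid1a RNA was lower in KO than in WT libraries in every population, without overlap. It ranged from 111 to 119 CPM, a count scaled to the library's TMM-adjusted size, in WT and from 50.9 to 53.6 CPM in KO LT-HSC, and from 426 to 451 CPM in WT and from 365 to 402 CPM in KO CMP (edgeR adjusted p = 0.421 and 0.0284). Reads over the exons that remain still count toward it. Mice 304 (KO) and 305 (WT) had at most 1.78 TPM (a share of transcripts that allows for their length) summed over 4 Y-linked genes, against at least 83.4 TPM in the precursors of the other 4 mice. Xist, the RNA of the inactive X chromosome, had 155 to 203 TPM in mouse 305 and at most 0.239 TPM in mouse 304 and the other precursor mice, so mouse 304 was low in both. The LT-HSC libraries had 3.26 to 6.8 TPM of Xist and 1.04 to 16.2 TPM of the Y-linked genes. The WT LT-HSC library S245 had the widest gene detection, with 10 counts or more on 27191 genes; the other 3 LT-HSC libraries had 18504 to 22407 such genes. LT-HSC libraries were made with SMART-Seq v4 and precursor libraries with TruSeq, so kit and population cannot be told apart and levels were tested only within the precursors.

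In TPM, which takes account of transcript length, Slc25a5 (adenine nucleotide translocase 2) was the most abundant carrier, at 832 to 961 TPM in WT CMP and 1139 to 1190 TPM in WT MEP. Slc25a3, the phosphate carrier, followed at 473 to 515 TPM in WT CMP and 688 to 719 TPM in WT MEP. Together with Slc25a39 these made up between 43.5% and 63% of the summed TPM of the family. The family summed to 2421 to 2599 TPM in WT CMP, 2264 to 2520 TPM in WT GMP and 3105 to 3243 TPM in WT MEP, so that WT MEP lay above both other WT precursors without overlap. In KO cells the sums were 2675 to 2774 TPM in CMP, 2135 to 2486 TPM in GMP and 3146 to 3403 TPM in MEP. Carriers of adenine nucleotides and phosphate supplied 61.4% of the family's TPM in WT CMP and 63% in WT MEP. Of the 47 carriers, 36 had at least 1 TPM in all libraries. Slc25a2, Slc25a18, Slc25a31, Slc25a34 and Slc25a54 stayed under 1 TPM in every library.

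Among the heme, iron and glutathione carriers, Slc25a39 had the highest level in WT CMP and WT GMP and was about level with Slc25a38 in WT MEP. Slc25a39 had 103, 115 and 98.3 TPM in WT CMP, 131, 120 and 112 TPM in WT GMP, and 128, 126 and 113 TPM in WT MEP. Its libraries overlapped between the populations on this scale. Slc25a38 had 30.8, 31.6 and 34.8 TPM in WT CMP, 22.5, 21.6 and 22.3 TPM in WT GMP, and 107, 128 and 116 TPM in WT MEP. Its 3 populations did not overlap. Slc25a37 had 33.2, 33.3 and 34.3 TPM in WT CMP, 45.8, 47.9 and 47.2 TPM in WT GMP, and 23.5, 29.3 and 21.7 TPM in WT MEP, so its order was GMP, CMP, MEP. Slc25a28 ranged from 39 to 40.5 TPM in WT CMP and from 27.6 to 30.7 TPM in WT MEP, and Slc25a40 from 7.76 to 8.7 TPM and from 6.27 to 7.16 TPM. In WT LT-HSC, Slc25a37 had 9.63 and 10.7 TPM and Slc25a38 had 49 and 89.2 TPM.

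**Figure D1:**
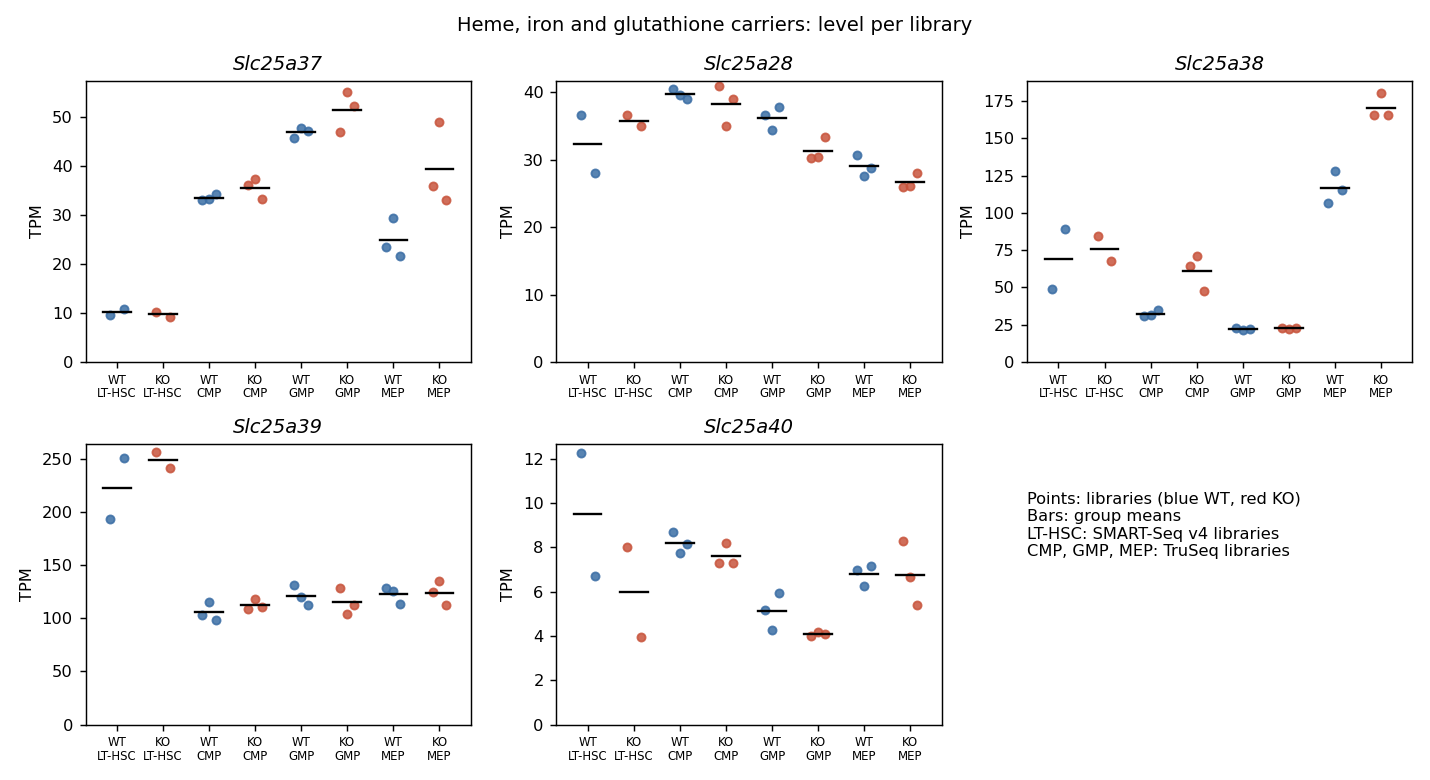
Level in TPM (vertical axes, from 0) of 5 carriers in each of the 22 libraries, by population and genotype; points are libraries and bars are group means. Slc25a38 was highest in MEP, where KO libraries lay above WT libraries, and Slc25a39 differed little between genotypes.

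Markers were used to check the labelled populations. In WT MEP, 8 of 8 MEP markers were higher than in WT CMP. All 8 megakaryocyte markers were lower there than in WT CMP, with sums of 30.5 to 52 TPM against 769 to 1130 TPM. In WT GMP, 7 of 8 GMP markers were higher than in WT CMP. The 8 LT-HSC markers summed to 793 to 1010 TPM in WT LT-HSC against 75.8 to 101 TPM in WT CMP. LT-HSC libraries, made with another kit than the precursors, also held RNA of genes listed as markers of other cells. Erythroid markers summed to 1780 to 4170 TPM in WT and 4360 to 4620 TPM in KO LT-HSC, against 966 to 1390 TPM in WT MEP. MEP markers summed to 3670 to 6310 TPM in WT LT-HSC against 1470 to 1630 TPM in WT CMP. GMP markers were lower than in WT CMP, at 643 to 1420 TPM against 4050 to 4930 TPM. The source of this RNA was not tested.

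The first question was how the carriers differ between the WT precursors. All 18 libraries of CMP, GMP and MEP were put in 1 edgeR model that held the mouse as a block; 43 carriers were tested, and changes were called at a Benjamini-Hochberg FDR under 0.1. In WT MEP against WT CMP, 23 carriers were higher and 11 lower. Over all 18523 genes tested, 33.5% were higher and 37.1% were lower. The median log2 difference of the carriers was 0.26, and that of all genes was -0.05. In WT MEP against WT GMP, 26 were higher and 10 lower, where 35.3% and 35.4% of all genes were, with medians of 0.40 and -0.02. In WT GMP against WT CMP, 10 carriers were higher and 12 lower, beside 20.6% and 24.6% of all genes; on log2(TPM + 0.5) with limma these were 5 and 20.

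Slc25a21 had the largest difference in each of these contrasts. Its mean was 12.5 ± 1.06 CPM in WT CMP, 0.275 ± 0.00867 CPM in WT GMP and 118 ± 3.35 CPM in WT MEP (SD, n = 3 each; CPM of the 18 libraries). The log2 difference of WT MEP from WT CMP was 3.23 ± 0.08 (SE; edgeR adjusted p = 1.38e-11), and that of WT GMP from WT CMP was -5.50 ± 0.14 (edgeR adjusted p = 1.57e-11). Slc25a38 rose by 2.13 ± 0.07 on the log2 scale from WT CMP to WT MEP, from 24.5 to 108 CPM, and was 0.36 lower on that scale in WT GMP than in WT CMP. Slc25a42, which imports coenzyme A, had 20.1 CPM in WT CMP, 13.1 CPM in WT GMP and 67.8 CPM in WT MEP. Slc25a44, a carrier of branched-chain amino acids, had 34.4 CPM in WT CMP and 90.2 CPM in WT MEP, a log2 difference of 1.39. Slc25a33, a pyrimidine nucleotide carrier, and the little-studied Slc25a47 were each 1.21 higher on the log2 scale in WT MEP than in WT CMP.

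Other carriers had their lowest level in WT MEP. Slc25a45 had 54.9 CPM in WT CMP, 52.2 CPM in WT GMP and 20.7 CPM in WT MEP. Slc25a27, an uncoupling protein relative, had 7.56 CPM in WT CMP and 2.49 CPM in WT MEP. Slc25a29, a carrier of basic amino acids, was highest in WT GMP, at 4.28 CPM, against 2.19 CPM in WT CMP and 1.07 CPM in WT MEP. Slc25a12, the aspartate and glutamate carrier Aralar, was 0.66 ± 0.07 higher on the log2 scale in WT GMP than in WT CMP, and Slc25a37 was 0.62 ± 0.10 higher. The ATP-Mg carriers Slc25a23 and Slc25a24 were lower in WT GMP than in WT CMP by log2 differences of -0.84 and -0.65. Slc25a35 was also lower there, at -0.66, and was 1.61 higher in WT MEP than in WT GMP. Slc25a1, the citrate carrier, was 1.21 higher on the log2 scale in WT MEP than in WT GMP.

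By role, 8 of 9 tested carriers of nucleotides and cofactors were higher in WT MEP than in WT CMP. In this contrast 33.5% of all genes were higher and 37.1% lower. Of 6 carriers of adenine nucleotides and phosphate, 4 were higher and 2 lower; Slc25a5 and Slc25a3 had log2 differences of 0.74 and 0.82, while Slc25a4 was at 0.21, and at -0.10 on the TPM scale. Of the 5 heme, iron and glutathione carriers, Slc25a38 and Slc25a39 were higher and Slc25a28 was lower, at -0.13, and Slc25a37 and Slc25a40 were not called. The calls of Slc25a4 and Slc25a28 were lost without single mice, 300, 305 or 309 for Slc25a4 and 304, 305, 308 or 309 for Slc25a28.

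**Figure D2:**
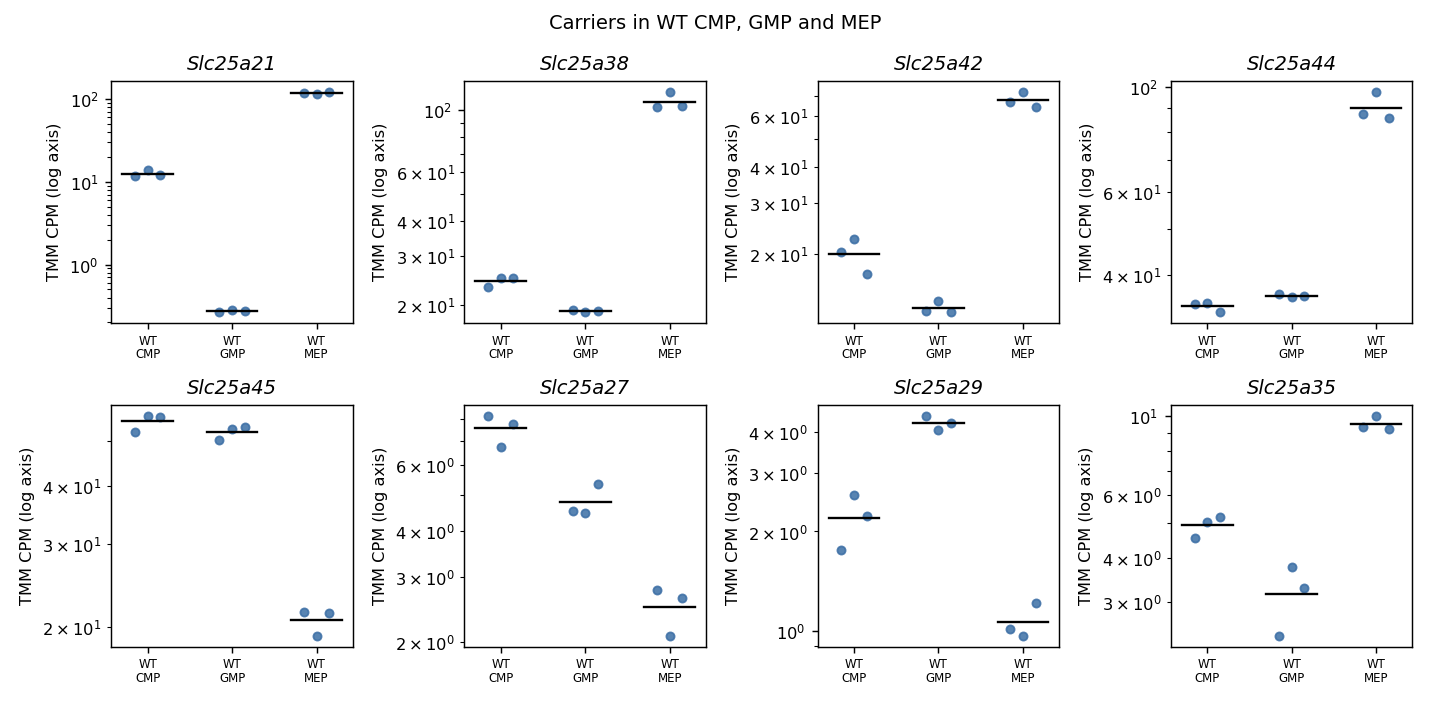
TMM-scaled CPM (log axes) of 8 carriers in the 3 WT libraries each of CMP, GMP and MEP; points are libraries and bars are means. Slc25a21, Slc25a38, Slc25a42 and Slc25a44 were highest in MEP and Slc25a45 and Slc25a27 lowest there.

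The main question of the design was how KO cells differ from WT cells of the same population. In CMP, 5 of 42 tested carriers were higher and 4 lower (11.9% and 9.52%), where 10.6% and 12.8% of 17214 genes were. In GMP, 12 of 41 were higher and 6 lower (29.3% and 14.6%), beside 17.5% and 16.3% of 16383 genes. In MEP, 9 of 42 were higher and 10 lower (21.4% and 23.8%), beside 14% and 15.4% of 15777 genes. The carriers had median log2 fold changes of 0.08 (CMP), 0.03 (GMP) and -0.02 (MEP), against 0.00, -0.01 and 0.00 for all genes. The 10 lower in MEP became 6 without WT 300, KO 301, KO 304 or KO 308, the 12 higher in GMP became 6 without WT 309, and the 4 lower in CMP became 2 without KO 301. Across the 3 precursors, 27 of 43 carriers tested in at least 1 were called there (62.8%), beside 50.8% of 18033 genes. Slc25a1, Slc25a12 and Slc25a38 were higher in each (6.98%, beside 1.79% of all genes), and Slc25a4 and Slc25a29 were lower in each (4.65%, beside 2.57%). These comparisons are of different populations of the same mice. In sorted cells, a shift in the mixture of cells and a change in RNA per cell cannot be told apart.

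The scale bears on these counts. Linear modelling with limma on log2(TPM + 0.5), which does not apply TMM, put the median of all genes at 0.08 in CMP and -0.12 in GMP, and moved the share of higher genes among the called from 45.4% to 68.6% in CMP and from 51.8% to 26.2% in GMP. On that scale 9 carriers were higher and 2 lower in CMP, 3 were higher in GMP and 5 were lower in MEP. Among WT contrasts the share went from 45.5% to 26.6% in GMP against CMP and from 47.4% to 31.5% in MEP against CMP, with medians of all genes at -0.12 and -0.20. In WT MEP against WT CMP, 17 carriers were then lower. Fold changes below are on TMM-scaled counts.

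**Figure D3:**
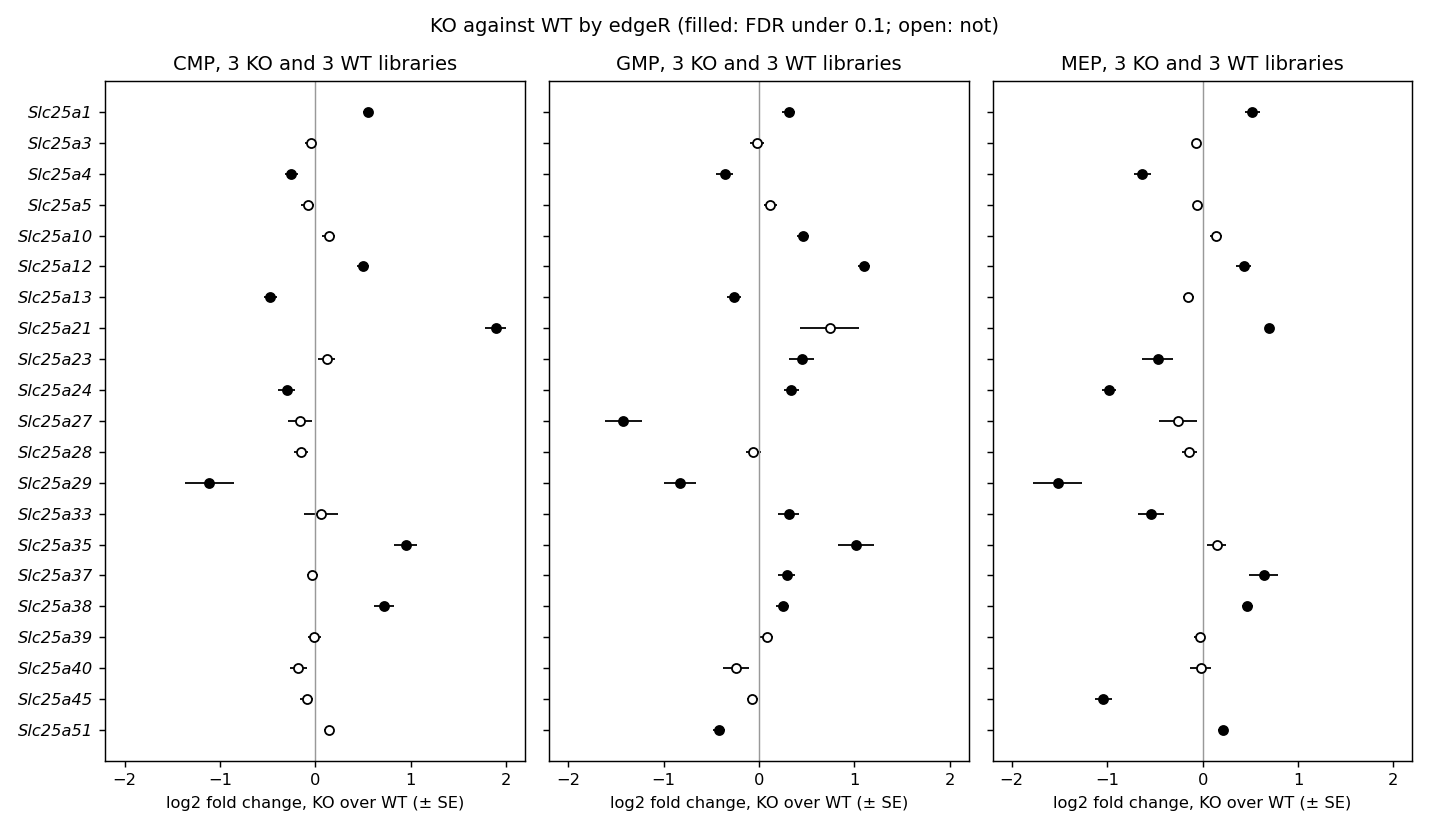
Log2 fold change of KO over WT with its standard error (horizontal axes) for 21 carriers in CMP, GMP and MEP, by edgeR; filled points passed an FDR of 0.1 and open points did not. Slc25a38 lay to the right of 0 in all 3 panels, Slc25a4 and Slc25a29 to the left, and Slc25a24 on opposite sides in GMP and MEP.

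Of the heme and iron carriers, Slc25a38 was higher in KO cells. In CMP it had 25.4, 27.7 and 27.9 CPM in WT and 45.5, 50.4 and 37.7 CPM in KO libraries, a log2 fold change of 0.72 ± 0.11 (SE; edgeR adjusted p = 0.00209). In MEP it had 96.4, 111 and 99.8 CPM in WT and 137, 145 and 142 CPM in KO libraries, a log2 fold change of 0.47 ± 0.06 (edgeR adjusted p = 0.00122). WT and KO libraries did not overlap in either population. The coding Slc25a38-201 took 52.7% to 63.3% of its TPM in WT CMP and 47.3% to 59.0% in KO CMP. Slc25a38-207, a processed transcript, took 6.49% to 14.4% in WT CMP and 13.7% to 23.1% in KO CMP. In MEP it took 15.1% to 22.5% in WT and 22.9% to 23.6% in KO libraries. The coding Slc25a38-202 took 8.6% to 11.7% in WT MEP and 9.98% to 13.0% in KO MEP. The gene total of Slc25a38 is thus not a measure of coding RNA alone. In GMP the groups were close, at 18 to 18.7 CPM in WT and 21.6 to 21.8 CPM in KO libraries (log2 fold change 0.25, edgeR adjusted p = 0.0236). The call was lost without WT 309, and on the TPM scale the difference was 0.03 and was not called.

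Slc25a37 was higher in KO MEP, with 131, 180 and 131 CPM against 87.1, 111 and 84.7 CPM in WT libraries (log2 fold change 0.64 ± 0.15, edgeR adjusted p = 0.0159). A transcript annotated as a retained intron took 47.4% to 59.1% of its TPM in WT MEP and 52.5% to 54.8% in KO MEP, and the coding Slc25a37-201 took 34.5% to 48.9% and 42.5% to 44.1%, so its gene total is not a measure of coding RNA alone. In GMP its groups overlapped, the log2 fold change was 0.29, and the call was lost without any of WT 300, 305 or 309 or of KO 304 or 308. In CMP it was not called, at -0.03 ± 0.06. The genotype difference in MEP exceeded that in CMP by 0.66 on the log2 scale (interaction, edgeR adjusted p = 0.00823). Slc25a39, Slc25a28 and Slc25a40 were not called in any population; the log2 fold changes of Slc25a39 were -0.01, 0.08 and -0.03 in CMP, GMP and MEP, with standard errors of 0.07, 0.07 and 0.06.

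Cell type markers also moved between the genotypes. All 12 genes of an erythroid list were higher in KO CMP, where they summed to 1040 to 1330 TPM against 146 to 237 TPM in WT, and 10 of 12 were higher in KO MEP (1960 to 2440 TPM against 966 to 1390 TPM). In KO GMP 2 of 12 were higher, with sums of 82.2 to 99 TPM against 29.4 to 140 TPM. No gene of the erythroid list was at 0 in any group. Of 8 MEP markers, 2 were higher and 2 lower in KO MEP, and their sums were lower, at 5240 to 5780 TPM against 7150 to 8270 TPM. The part of these markers in the carriers' differences was not tested. Of 20 partners in heme synthesis and iron handling, 12 were higher and 1 lower in KO CMP, 6 and 3 in KO GMP, and 11 and 4 in KO MEP. Beside these, 10.6% of all genes were higher and 12.8% lower in KO CMP, 17.5% and 16.3% in KO GMP, and 14% and 15.4% in KO MEP. Alas2, the erythroid enzyme of the first heme step, is in both the erythroid and the partner list. It rose by 3.02 ± 0.30 on the log2 scale in CMP and by 2.97 ± 0.28 in MEP. Cpox, a later enzyme of the pathway, rose by 1.46 in CMP and by 0.75 in MEP. In GMP the partners with the largest changes were Alas1 at 0.65, the transferrin receptor gene Tfrc at 0.64 and Abcb10 at 0.60.

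Slc25a21 had the largest fold change of the family in CMP. It had 13.0, 15.2 and 13.3 CPM in WT and 56.3, 54.4 and 43.5 CPM in KO libraries, a log2 fold change of 1.89 ± 0.11 (edgeR adjusted p = 3.94e-05). In MEP it had 109, 109 and 117 CPM in WT and 182, 174 and 187 CPM in KO libraries, a log2 fold change of 0.70 ± 0.05 (edgeR adjusted p = 8.8e-05). In GMP it stayed under 0.5 CPM in all 6 libraries, at 0.26 to 0.271 CPM in WT and 0.398 to 0.473 CPM in KO. The difference in MEP was smaller than in CMP by 1.20 on the log2 scale (interaction -1.20, edgeR adjusted p = 1.99e-05). The coding transcripts Slc25a21-201 and Slc25a21-202 took similar shares of its TPM, at 46.1% to 56.2% and 43.4% to 53.9% in WT CMP and at 44.2% to 49.8% and 48.0% to 55.3% in KO CMP. An exon of Slc25a21 overlaps one of Pax9.

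Slc25a1 was higher in each precursor, with log2 fold changes of 0.55 ± 0.05 for CMP, 0.31 ± 0.07 for GMP and 0.52 ± 0.08 for MEP; on the TPM scale the GMP difference was 0.14 and was not called. In MEP it had 152, 127 and 137 CPM in WT and 203, 186 and 209 CPM in KO libraries, which did not overlap. Slc25a12 had its largest difference in GMP, with 136, 130 and 121 CPM in WT and 286, 273 and 273 CPM in KO libraries (log2 fold change 1.10 ± 0.06, edgeR adjusted p = 7.05e-06). In CMP and MEP it was 0.50 and 0.43 higher, and the difference in GMP exceeded that in CMP by 0.61 (edgeR adjusted p = 0.000724). Between 55.8% and 65.8% of Slc25a12 TPM in WT GMP, and 56.0% to 60.2% in KO GMP, lay on a transcript annotated for nonsense-mediated decay, so the same limit holds for it. Slc25a13, the other aspartate and glutamate carrier (citrin), was lower in KO CMP at -0.47 ± 0.07 and in KO GMP at -0.26 ± 0.07.

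Slc25a4, adenine nucleotide translocase 1, was lower in each KO precursor. In MEP it had 124, 122 and 124 CPM in WT and 79.9, 91.0 and 68.6 CPM in KO libraries (log2 fold change -0.63 ± 0.09, edgeR adjusted p = 0.00229), and in CMP and GMP its log2 fold changes were -0.25 and -0.36. The CMP call was lost without KO 301. Slc25a5 and Slc25a3, which are far more abundant, were not called in any population; in the precursors their log2 fold changes lay between -0.08 and 0.12. Slc25a31, the testis translocase, had at most 0.187 TPM.

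Slc25a24 and Slc25a23, which exchange ATP-Mg for phosphate, were each higher in KO GMP and lower in KO MEP. Slc25a24 had 25.8, 24.4 and 23.1 CPM in WT and 33.8, 29.4 and 29.7 CPM in KO GMP (log2 fold change 0.34 ± 0.08), and 27.8, 28.7 and 27.3 CPM in WT and 14.8, 13.2 and 14.5 CPM in KO MEP (-0.98 ± 0.07, edgeR adjusted p = 8.8e-05). The genotype difference in MEP less that in GMP was -1.33 (edgeR adjusted p = 1.27e-06). In CMP Slc25a24 was lower at -0.30, a call lost without WT 300, WT 309, KO 301 or KO 304. Slc25a23 was 0.45 higher in KO GMP and 0.47 lower in KO MEP (log2 fold change -0.47), where the libraries overlapped and the call was lost when any library but WT 305 was left out. On the TPM scale neither carrier was called in GMP. Slc25a33 likewise was 0.31 higher in KO GMP and was lower in KO MEP, at -0.54; the GMP call was lost without any library but KO 304, and the MEP call without KO 301.

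Several less abundant carriers had large changes. Slc25a29 was lower in each precursor, with log2 fold changes of -1.11 ± 0.26 for CMP, -0.83 ± 0.17 for GMP and -1.52 ± 0.26 for MEP, where the mean was 0.351 CPM in KO and 1.02 CPM in WT libraries. Slc25a35 was higher in KO CMP, at 9.47 to 11 CPM against 4.97 to 5.76 CPM, and in KO GMP, at 5.23 to 6.69 CPM against 2.34 to 3.58 CPM; an exon of it overlaps one of Rangrf. Slc25a27 was lower in KO GMP, at 1.42 to 1.99 CPM against 4.25 to 5.15 CPM (log2 fold change -1.42 ± 0.19). Slc25a45 was lower in KO MEP, with 9.03, 9.83 and 9.84 CPM against 20.1, 18.2 and 20.6 CPM (log2 fold change -1.04 ± 0.09, edgeR adjusted p = 0.000168), and was not called in CMP or GMP. Slc25a10, the dicarboxylate carrier, was 0.46 ± 0.06 higher in KO GMP. Slc25a51, the mitochondrial NAD+ carrier, was lower in KO GMP at -0.42 ± 0.06 and higher in KO MEP at 0.21 ± 0.05. Of the 4 X-linked carriers, Slc25a5, Slc25a14, Slc25a43 and Slc25a53, Slc25a14 in MEP was called (log2 fold change 0.38 ± 0.12), a call lost without any library but WT 305.

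By role, the carriers of carboxylates and acylcarnitine gave 2 higher of 5 tested in CMP, 3 of 5 in GMP, and 2 higher and 1 lower in MEP. Those of adenine nucleotides and phosphate gave 2 lower of 6 in CMP, 3 higher and 1 lower in GMP, and 3 lower in MEP. Markers of the sorted populations and of other cells moved in the same comparisons. All 6 basophil and mast cell markers were lower in KO GMP, where they summed to 127 to 176 TPM against 780 to 1250 TPM in WT. In the same comparison 4 of 8 neutrophil markers were higher and 2 lower (418 to 1350 TPM against 166 to 380 TPM), 5 of 8 GMP markers were higher and 2 lower (41700 to 47000 TPM against 31400 to 37000 TPM), and 6 of 8 MEP markers were lower (71.1 to 74.5 TPM against 109 to 128 TPM). In KO CMP 4 of 8 neutrophil and 4 of 6 basophil and mast cell markers were lower, and 4 of 8 MEP markers were higher. In that population 5 of 8 GMP markers were lower, and of 8 megakaryocyte markers 6 were lower and 2 higher, while 5 of 8 megakaryocyte markers were higher in KO MEP (81.3 to 103 TPM against 30.5 to 52 TPM). No gene of these lists was at 0 in those groups, and their part in the carriers' differences was not tested.

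The difference between genotypes itself differed between populations for 13 of 43 carriers in GMP against CMP, 11 in MEP against CMP and 14 in MEP against GMP, by the interaction in edgeR. Over all genes tested, 21.0%, 13.0% and 26.8% had such an interaction. On the TPM scale the share of positive ones among the called went from 52.1% to 15% in the first of these, from 43.5% to 33.6% in the second and from 45.6% to 73.2% in the third, with medians of all genes at -0.20, -0.06 and 0.14.

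**Figure D4:**
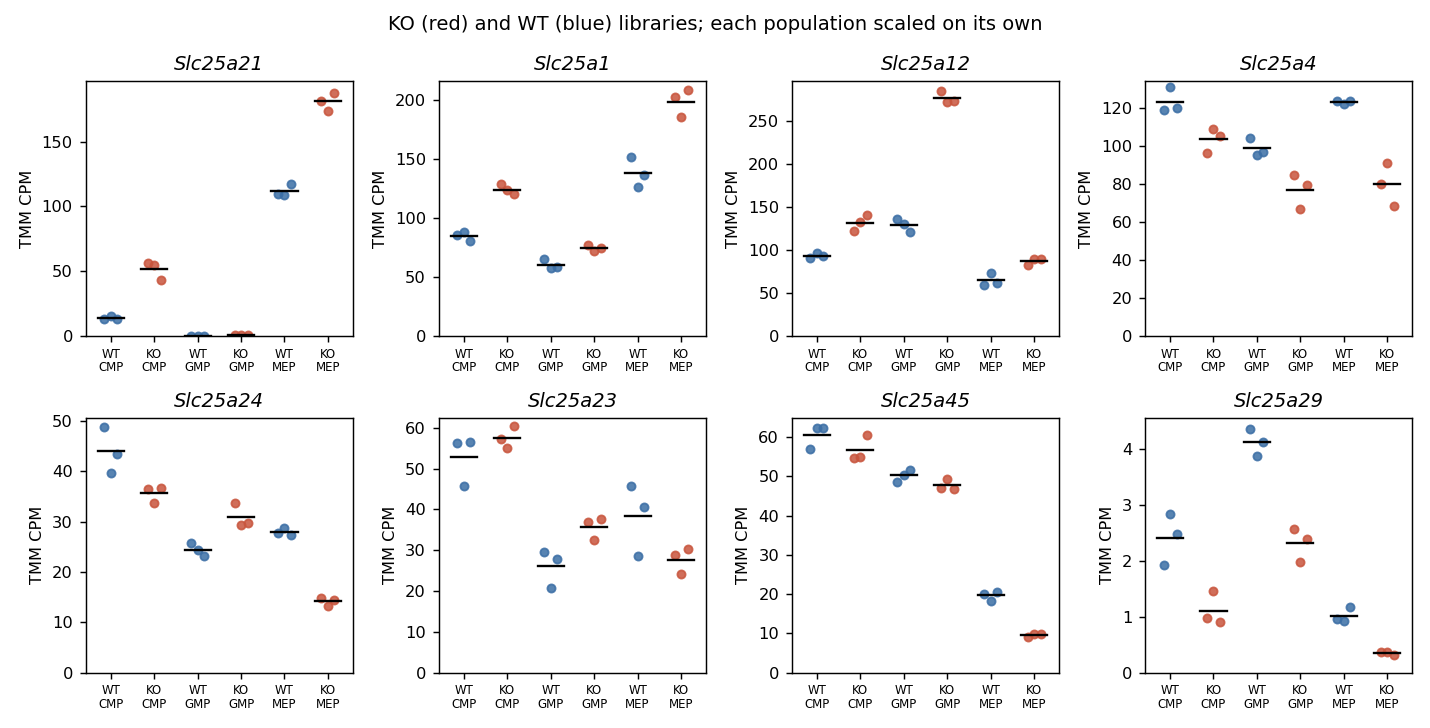
TMM-scaled CPM (vertical axes, from 0) of 8 carriers in the WT (blue) and KO (red) libraries of CMP, GMP and MEP, each population scaled on its own; points are libraries and bars are means. Slc25a21 rose in CMP and MEP, Slc25a12 most in GMP, and Slc25a24 and Slc25a45 fell in MEP.

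In LT-HSC none of 43 tested carriers was called, and 1 carrier, Slc25a12, had an unadjusted p under 0.05 (log2 fold change 0.72 ± 0.30; edgeR adjusted p = 0.876). DESeq2 also called 0 of them. Over all 22733 genes, 0.0792% were called and 1180 had an unadjusted p under 0.05. The median standard error of a carrier was 0.34 on the log2 scale, against 0.08 in each precursor. A fit without WT S269 leaves WT S245 as the lone WT library and assumes that it varies like the KO libraries. The log2 fold changes were then 0.84 for Slc25a1, 0.79 for Slc25a12, 1.09 for Slc25a21 and 1.01 for Slc25a38. With both WT libraries they were 0.47, 0.72, 0.18 and 0.3. Over all fits that left out 1 library, they ranged from 0.17 to 0.84 for Slc25a1 and from 0.58 to 0.9 for Slc25a12. For Slc25a21 and Slc25a38 the ranges were -0.36 to 1.09 and -0.17 to 1.01, so the direction changed with the library left out. Other carriers were lower without WT S269, among them Slc25a23 at -0.47 and Slc25a36 at -0.27. Slc25a38 had 35.2 and 83.1 CPM in the WT libraries S245 and S269, and 76.5 and 68.8 CPM in the KO libraries, which lie between them.

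Genes that handle the same traffic were set beside the family. Over all genes, 10.6% were higher and 12.8% lower in KO CMP, 17.5% and 16.3% in KO GMP, and 14% and 15.4% in KO MEP. In WT MEP against WT CMP, 33.5% of all genes were higher. Of 13 genes for carrier import into the inner membrane, 5 were higher and 1 lower in KO GMP, and 2 were lower in KO MEP, while 12 were higher in WT MEP than in WT CMP. Timm10b, a small translocase subunit, rose by 0.58 ± 0.09 on the log2 scale in KO GMP. Of 10 genes for calcium uptake, pyruvate import and outer membrane pores, 1 was higher and 2 lower in KO CMP, 3 were higher and 2 lower in KO GMP, and 2 were higher and 3 lower in KO MEP, where 9 were tested. Mcu, the pore of the calcium uniporter, was lower in KO CMP at -0.85 and higher in KO GMP at 0.48. Among carrier relatives with other symbols, Mtch1 and Ucp2 were lower in KO CMP, at -0.22 and -0.17, and in KO MEP, at -0.30 and -0.17.

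Across the 18 precursor libraries and 8100 genes, the genes whose log2 levels correlated most with Slc25a38 were Spata24, Pip4k2c, Hdgf, Rabgef1 and Svbp, with r from 0.994 to 0.996. For Slc25a37 they included Brd9, Mis12, Odf2 and Dpp8, with r from 0.913 to 0.924, and for Slc25a39 they were Rpl7l1, Mrpl19, Sec13, Eef1akmt4 and Smn1, with r from 0.966 to 0.972. The libraries fall into 3 populations, which these correlations follow, and they are given as a description.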

How the data were processed

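RNA was measured in 22 libraries of sorted mouse cells. Per the labels and the methods of the study, the authors ran kallisto on the Ensembl mouse transcripts and deposited, for each of 115088 transcripts, an estimated count, a TPM value and an effective length. Whether counting used strand is not given in the sources used here, so reads of overlapping genes, which 14 carriers have, cannot be told apart. Transcripts were paired with GENCODE vM21 genes of GRCm38 (99.2%), and counts were summed per gene and rounded.

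KO and WT were compared within each population with edgeR 4.0.16 (TMM, filterByExpr, quasi-likelihood F-test, Benjamini-Hochberg adjustment over all genes, FDR under 0.1) in R 4.3.3. WT populations and interactions were fitted on 18 libraries with the mouse as a block, since each mouse gave all 3 populations. Deviations from group means correlated between libraries of 1 mouse with a median r of 0.296 (18 pairs, from -0.0268 to 0.464). Between different mice the median was -0.171 (36 pairs). Taking off the group mean ties the second value to the first, so it adds no separate evidence. Alternatives were DESeq2 1.42.0, limma 3.58.1 on log2(TPM + 0.5), chosen after seeing the data, other scaling, no filter, length offsets, no block and left-out libraries. A standard error is the size of the log2 fold change over the square root of F. The fits were checked on simulated counts. Named carriers are the heme and iron, phosphate and adenine nucleotide carriers and, per comparison, the 8 called carriers with a mean of at least 1 TPM and the largest changes. The members and lists were chosen with earlier results of these data known. The numbers in the library titles were read as mice. A few genes are not reported here.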

Additional observations from a re-analysis of the deposited data

Results flagged for a closer look

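The difference between KO and WT cells was not the same in 2 populations for these of the named carriers, by the interaction of genotype and population in edgeR at an FDR under 0.1. For the difference in GMP less that in CMP, the carriers and their log2 values were Slc25a1 -0.23, Slc25a10 0.32, Slc25a12 0.61, Slc25a13 0.21, Slc25a21 -1.14, Slc25a23 0.34, Slc25a24 0.65, Slc25a27 -1.27, Slc25a38 -0.47 and Slc25a51 -0.55. For the difference in MEP less that in CMP, the carriers and their log2 values were Slc25a13 0.31, Slc25a21 -1.20, Slc25a23 -0.58, Slc25a24 -0.68, Slc25a33 -0.61, Slc25a35 -0.81, Slc25a37 0.66 and Slc25a45 -0.95. For the difference in MEP less that in GMP, the carriers and their log2 values were Slc25a10 -0.33, Slc25a12 -0.68, Slc25a23 -0.93, Slc25a24 -1.33, Slc25a27 1.16, Slc25a33 -0.87, Slc25a35 -0.89, Slc25a45 -0.98 and Slc25a51 0.62. On the TPM scale, the GMP less CMP values of Slc25a13 and Slc25a23 were -0.04 and -0.03, of the opposite sign. The GMP less CMP value of Slc25a21 rests on few counts, with 13.6 to 16.1 estimated counts in WT and 20.3 to 24.5 in KO GMP libraries. Causes were not tested. Groups of 2 or 3 libraries were not searched for outlying values.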

How the results depend on the processing

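Median-of-ratios scaling, no filter, a length offset and DESeq2 left every count of called carriers within 1.5 times its value, as did leaving out mice 304 and 305 for KO against WT in the precursors. In 1 fit of 18 libraries, 8 carriers were higher in KO CMP. Without the mouse block, that is without the pairing of libraries of 1 mouse, 3 carriers were higher for GMP less CMP, and no other count moved by more than 1.5 times. On log2(TPM + 0.5) with limma, higher and lower counts that moved were 9 and 2 in KO CMP, 3 higher in KO GMP, 5 lower in KO MEP, 5 and 20 in WT GMP against CMP, 17 lower in WT MEP against CMP, 2 and 14 for GMP less CMP, 1 higher for MEP less CMP, and 11 and 6 for MEP less GMP. That scale turned the sign of Slc25a28 in WT GMP against CMP (-0.13), Slc25a4 in WT MEP against CMP (-0.10), Slc25a13 and Slc25a23 for GMP less CMP (-0.04 and -0.03) and Slc25a21 for MEP less GMP (0.68). On TMM-scaled counts Slc25a21 was not called for MEP less GMP. Its means in GMP were 0.226 TPM in WT and 0.26 TPM in KO libraries, below the 0.5 that this scale adds. The cause was not tested.

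Leaving out 1 library or mouse gave 0 to 8 higher carriers in LT-HSC (8 without WT S269), 2 to 5 lower in CMP (2 without KO 301), 6 to 11 higher in GMP (6 without WT 309) and 6 to 11 lower in MEP (6 without WT 300, KO 301, KO 304 or KO 308). For interactions it gave 3 to 5 higher for GMP less CMP (3 without mouse 305), and 1 to 2 higher (1 without mouse 304 or 309) and 5 to 9 lower (5 without mouse 309) for MEP less CMP. With 2 libraries a group, carriers in LT-HSC had a median standard error of 0.34 on the log2 scale; larger differences, such as 0.72 for Slc25a12 and -1.14 for Arid1a, also missed the threshold.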
